A study of Homo sapiens with 12 samples.

Results

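A set of 9 genes of epithelial cell adhesion and membrane proteolysis were followed across a pair of lung cancer cell lines with and without over-expression of the splicing factor SRSF2. They are the cadherin genes CDH1 and CDH3, the adhesion gene EPCAM, the splicing regulator gene ESRP2, the transcription factor gene ELF3, the protease genes ST14 and PRSS8, and the protease inhibitor genes SPINT1 and SPINT2. The genes were chosen by name and looked up in a table of counts per gene, in which all 9 were found among 16599 genes. Polyadenylated RNA was sequenced from H1650 cells over-expressing SRSF2, untreated H1650 cells, A549 cells over-expressing SRSF2 and untreated A549 cells, with 3 libraries in each of the 4 groups. H1650 and A549 are human lines from lung adenocarcinoma. How SRSF2 was over-expressed is not given in the sources used here. The extra SRSF2 itself could not be checked, since the counts used here hold no value for this gene. The controls are labelled untreated but titled NC, an abbreviation the labels leave unexplained, so they may or may not have received an empty construct. The labels do not say whether the 3 libraries of a group came from separate cultures, so p-values measure a spread between libraries that may be technical.

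Epithelial cells hold to each other through adherens junctions, in which classical cadherins bind their like on the neighbouring cell and are tied to actin by catenins. EpCAM, a membrane protein of simple epithelia and carcinomas, adds a further contact. On the same membranes the serine protease matriptase (ST14) and the lipid-anchored protease prostasin (PRSS8) act on each other and on surface receptors, and the Kunitz inhibitors encoded by SPINT1 and SPINT2 restrain them. ESRP2 sets epithelial splice forms and ELF3 is an ETS family factor of epithelia. These genes are often read together as markers of the epithelial state in carcinoma cells, and repressors such as SNAI1, ZEB1 and ZEB2 act on several of them through E-box sequences.

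Total counts ran from 23876899 to 32079027 per library, and all 9 genes had counts above 0 in all 12 libraries. Levels are given as CPM, the count divided by the library's total in units of 1000000 after TMM scaling of the totals. In a principal component analysis the lines parted on component 1 (89.1% of the variance). On component 2 (5.58%) H1650 SRSF2 replicate 3 lay at -33.8, nearer the untreated libraries than replicates 1 and 2 at -45.2 and -42.2. Calls of the 9 genes that change without this library are given both ways below. The epithelial markers KRT7, KRT8, KRT18, KRT19 and MUC1 were present in every library, with summed levels before TMM scaling of 7861 to 8367 CPM in H1650 SRSF2, 8609.8 to 8857 CPM in untreated H1650, 9473 to 9548 CPM in A549 SRSF2 and 9778 to 10418 CPM in untreated A549. Of the lung markers only SFTPB was analysed, and it reached no more than 0.405 CPM in any library.

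RefSeq promoter sequences (250 bases before to 50 after the start site, build GRCh38.p14) were at hand for 2 of the 9 genes, ELF3 and SPINT1. They are shown because ELF3 had the largest response to SRSF2 among these genes in H1650 cells and SPINT1 was nearly silent in A549 cells. Capitals mark the E-box, searched as CAGGTG and its reverse complement CACCTG, the kind of site that SNAI1 and ZEB proteins bind. The ELF3 window is chr1:202010337-202010636 on the plus strand, and the window at the second of the SPINT1 start sites is chr15:40844227-40844526 on the plus strand.
ELF3: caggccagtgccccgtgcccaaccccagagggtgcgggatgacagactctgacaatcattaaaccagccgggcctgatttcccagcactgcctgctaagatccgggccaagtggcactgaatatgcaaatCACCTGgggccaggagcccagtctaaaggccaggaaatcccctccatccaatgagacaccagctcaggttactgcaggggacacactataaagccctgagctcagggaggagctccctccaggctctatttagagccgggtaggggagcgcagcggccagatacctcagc
SPINT1: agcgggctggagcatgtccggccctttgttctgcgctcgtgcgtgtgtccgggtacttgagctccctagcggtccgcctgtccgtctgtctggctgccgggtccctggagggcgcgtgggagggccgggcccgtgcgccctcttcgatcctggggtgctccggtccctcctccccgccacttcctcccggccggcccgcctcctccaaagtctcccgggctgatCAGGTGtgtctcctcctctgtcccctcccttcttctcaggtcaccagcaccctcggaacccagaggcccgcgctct
The ELF3 window held 1 E-box on the minus strand, beginning 120 bases before the start site. The SPINT1 window held 1 on the plus strand, beginning 26 bases before the start site, and the window at the other SPINT1 start site held none. Of all 35116 promoter windows of this length, 20.6% held an E-box of these letters, so a match is common. The ETS motif CCGGAAG (10.3% of windows) and the grainyhead motif AACCGGTT (0.134%), searched on both strands, had no match in the 3 windows. The windows were rich in G and C, at 59.0% for ELF3 and 69.7% for the SPINT1 site shown.

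In H1650 cells the classical cadherins were among the most abundant of the 9 genes. CDH1 (E-cadherin, ENSG00000039068, chromosome 16 from 68737225 to 68835548, plus strand, GRCh38) stood at 1269, 1183 and 1240.0 CPM in H1650 SRSF2 and at 1322, 1319 and 1287 CPM in untreated H1650. All 3 SRSF2 libraries lay just below the untreated ones. CDH1 was 24.98, 25.66 and 28.07 CPM in A549 SRSF2 and 36.85, 41.7 and 36.01 CPM in untreated A549. Again no SRSF2 library reached an untreated one, and every A549 library was far below every H1650 library. CDH3 (P-cadherin, the cadherin of basal layers, ENSG00000062038, chromosome 16 from 68636189 to 68722616, plus strand) stood at 1350.0, 1364 and 1389 CPM in H1650 SRSF2 and at 1523, 1494 and 1571 CPM in untreated H1650, with no overlap. In A549 it was at the edge of detection, with 18, 20 and 9 counts in the SRSF2 libraries and 16, 17 and 4 counts in the untreated libraries.

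EPCAM (ENSG00000119888, chromosome 2 from 47345158 to 47387601, plus strand) was 345.0, 373.7 and 358.5 CPM in H1650 SRSF2 and 312.4, 312.9 and 295.9 CPM in untreated H1650. Here the SRSF2 libraries were all above the untreated ones. In A549 the order was the other way round, at 4.50, 3.37 and 3.30 CPM in SRSF2 libraries and 5.72, 5.27 and 6.17 CPM in untreated libraries. ESRP2 (ENSG00000103067, chromosome 16 from 68229111 to 68238102, minus strand) was 88.2, 94.6 and 97.6 CPM in H1650 SRSF2 and 121.5, 109.0 and 117.7 CPM in untreated H1650, without overlap. In A549 it had 15, 6 and 11 counts in SRSF2 libraries and 13, 6 and 4 counts in untreated libraries.

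ELF3 (ENSG00000163435, chromosome 1 from 202007945 to 202017188, plus strand) behaved unlike the adhesion genes in that its highest level was in A549. It stood at 59.1, 53.2 and 51.8 CPM in H1650 SRSF2 and at 30.9, 30.7 and 31.3 CPM in untreated H1650. In A549 it was 57.3, 56.2 and 56.8 CPM in SRSF2 libraries and 66.3, 70.7 and 70.1 CPM in untreated libraries. The SRSF2 groups of the lines overlapped each other, while the untreated groups stood apart on either side of them.

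Among the proteases, ST14 (ENSG00000149418, chromosome 11 from 130159562 to 130210376, plus strand) was 709.6, 773.7 and 799.8 CPM in H1650 SRSF2 and 786.4, 797.9 and 846.4 CPM in untreated H1650. Replicate 3 of the SRSF2 group lay within the untreated range. PRSS8 (ENSG00000052344, chromosome 16 from 31131433 to 31135762, minus strand) was 93.7, 99.7 and 104.5 CPM in H1650 SRSF2 and 115.2, 119.4 and 120.5 CPM in untreated H1650, without overlap. In A549 both proteases were nearly absent. ST14 had 15, 7 and 6 counts in A549 SRSF2 and 14, 17 and 5 counts in untreated A549, and PRSS8 had 11, 2 and 5 counts in A549 SRSF2 and 6, 4 and 3 counts in untreated A549.

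The inhibitor genes parted ways. SPINT1 (which encodes HAI-1, ENSG00000166145, chromosome 15 from 40844018 to 40858207, plus strand) was 496.3, 521.7 and 513.6 CPM in H1650 SRSF2 and 571.7, 556.4 and 555.6 CPM in untreated H1650, with all SRSF2 libraries lower. In A549 it had 11, 22 and 12 counts in SRSF2 libraries and 14, 19 and 12 counts in untreated libraries. SPINT2 (which encodes HAI-2, ENSG00000167642, chromosome 19 from 38244035 to 38292614, plus strand) was 925.6, 957.3 and 915.7 CPM in H1650 SRSF2 and 779.9, 773.8 and 796.8 CPM in untreated H1650, with all SRSF2 libraries higher. A549 cells carried it too, unlike SPINT1 and the proteases, at 287.2, 290.5 and 295.2 CPM in SRSF2 libraries and 297.4, 290.1 and 294.3 CPM in untreated libraries. The A549 groups overlapped.

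**Figure D1:**
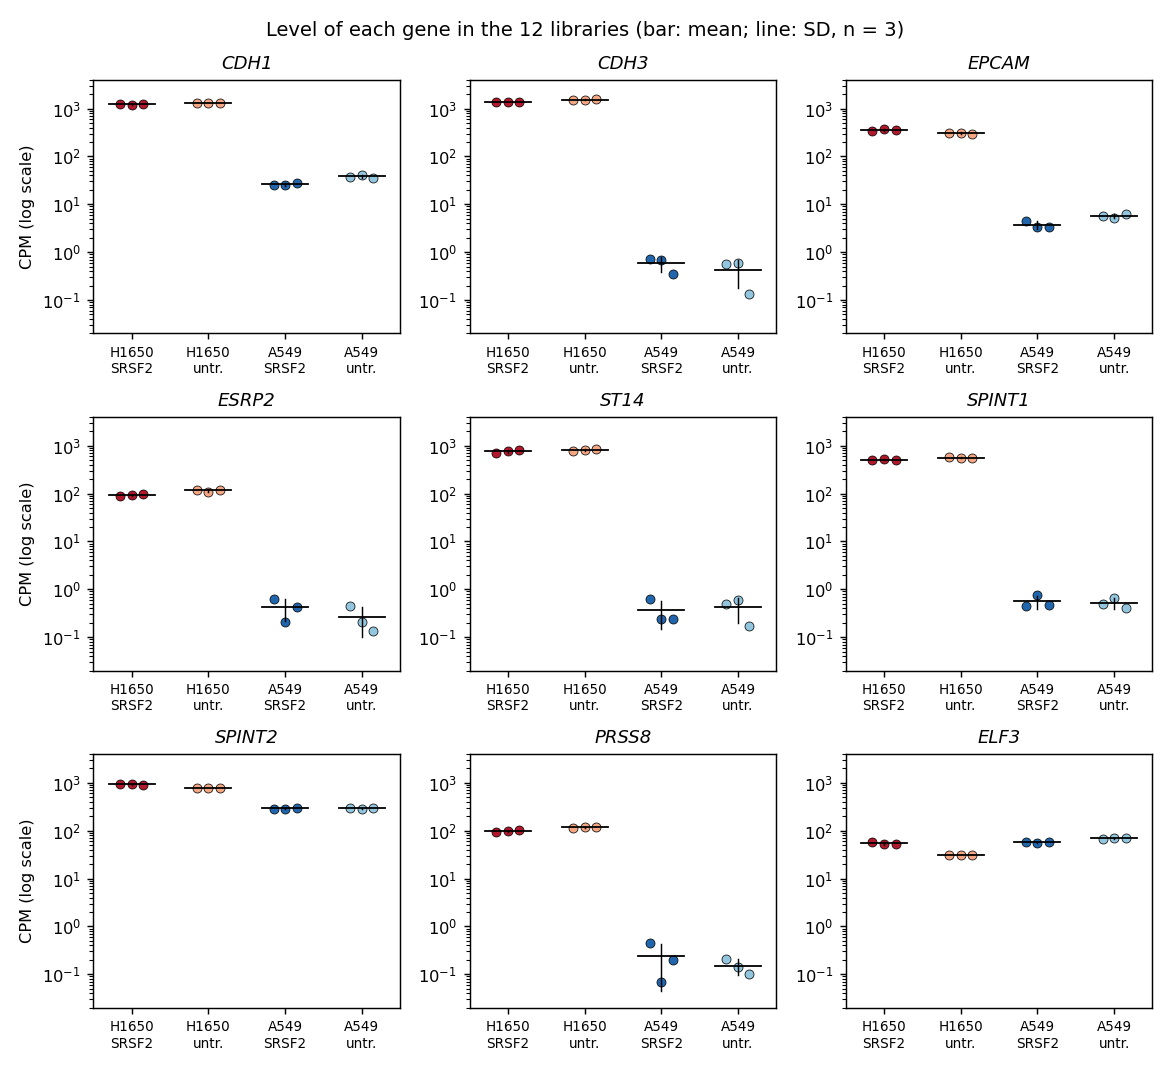
Level of each of the 9 genes in CPM on a log scale, with a panel per gene and the groups H1650 SRSF2, untreated H1650, A549 SRSF2 and untreated A549 from left to right; points are libraries, bars are means and lines are SD (n = 3). CDH3, ESRP2, ST14, SPINT1 and PRSS8 lie below 1 CPM in all A549 libraries, SPINT2 and ELF3 are well expressed in both lines, and ELF3 alone has its highest group mean in A549 (69.1 CPM, untreated).

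Over-expression of SRSF2 in H1650 cells went with small changes of the adhesion and protease genes in both directions and with a larger rise of ELF3. By edgeR's quasi-likelihood test with Benjamini-Hochberg adjustment, 3 of the 9 genes rose, 5 fell and 1 was not called at an adjusted p under 0.05. Of all 15991 genes tested in H1650, 62.3% were called, 31% higher and 31.3% lower, so the share of these genes called is no result by itself. Their median log2 fold change was -0.09, beside 0.00 over all genes tested.

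ELF3 rose to 54.7 ± 3.87 CPM in H1650 SRSF2, against 30.9 ± 0.302 CPM in untreated H1650 (SD, n = 3 each). This is 1.77-fold, a log2 fold change of 0.82 (SE 0.05, adjusted p = 1.82e-15). The other genes that rose were SPINT2, by 0.25 (SE 0.03, adjusted p = 2.55e-08), and EPCAM, by 0.23 (SE 0.04, adjusted p = 1.82e-05). These are rises of 19.1% and 16.9%. Each of the 3 genes was higher in all 3 SRSF2 libraries than in any untreated one. On log2(FPKM + 0.1) the EPCAM call was lost (0.14, adjusted p = 0.0733).

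Among the genes that fell, ESRP2 had the largest change, at 93.5 ± 4.81 CPM in H1650 SRSF2 and 116.1 ± 6.39 CPM in untreated H1650 (log2 fold change -0.31, SE 0.05, adjusted p = 8.17e-06). PRSS8 fell by 0.25 on the log2 scale (SE 0.05, adjusted p = 7.08e-05), a call lost on log2(FPKM + 0.1) (-0.33, adjusted p = 0.107). CDH3 fell by 0.16 (SE 0.04, adjusted p = 0.00108) and SPINT1 by 0.14 (SE 0.04, adjusted p = 0.00179). CDH1 fell by 6.04% (log2 fold change -0.09, SE 0.04, adjusted p = 0.0434), and this call rests on single libraries. Its adjusted p was 0.201 without H1650 SRSF2 replicate 2, 0.12 and 0.105 without untreated H1650 replicates 1 and 2, and 0.0557 without A549 SRSF2 replicate 2, which enters only through the shared spread. ST14 had a log2 fold change of -0.09 (95% interval -0.18 to 0.00, adjusted p = 0.0911) and was not called. Without H1650 SRSF2 replicate 3 it was called lower (-0.13, adjusted p = 0.0187), as it was with plain library totals in place of TMM (-0.17, adjusted p = 0.00193) and with a replicate block (-0.09, adjusted p = 0.0325).

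Taken library by library against the untreated mean, all 9 genes moved the same way in all 3 H1650 SRSF2 libraries. How many of all genes tested did so was not counted, so this is a description only. Replicate 3 had the smallest change for 6 of the 9. For ST14 the log2 differences were -0.19, -0.07 and -0.02 in replicates 1, 2 and 3, and for ELF3 they were 0.93, 0.78 and 0.74. Without replicate 3, 3 of the 9 genes were called higher and 6 lower, beside 9717 of all 15991 genes tested called in either direction.

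In A549 cells the genes that were expressed at all either fell with SRSF2 or showed no call. CDH1 fell to 26.2 ± 1.62 CPM in A549 SRSF2, against 38.2 ± 3.07 CPM in untreated A549 (SD, n = 3 each). This is a fall of 31.3% (log2 fold change -0.54, SE 0.05, adjusted p = 8.86e-10). EPCAM was 3.72 ± 0.672 CPM in A549 SRSF2 and 5.72 ± 0.451 CPM in untreated A549 (log2 fold change -0.63, SE 0.11, adjusted p = 2.85e-05). On log2(FPKM + 1), a scale that understates the change of low genes, this call was lost (-0.06, adjusted p = 0.175). ELF3 was 56.7 ± 0.580 CPM in A549 SRSF2 and 69.1 ± 2.38 CPM in untreated A549 (log2 fold change -0.28, SE 0.05, adjusted p = 2.67e-05). These 3 of 9 genes were called lower and 0 higher, where 32.3% of all genes tested were called in A549, 16.4% higher and 15.9% lower, so their share is close to the background. SPINT2 had a log2 fold change of -0.01 (95% interval -0.08 to 0.05, adjusted p = 0.78), an interval far from the rise seen in H1650.

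The remaining 5 genes, CDH3, ESRP2, ST14, SPINT1 and PRSS8, had at most 22 counts in any A549 library. Of these, PRSS8 alone passed the filter on low counts only through H1650, and the others met it in A549 as well. Summed over the 3 libraries of a group, PRSS8 had 18 counts in A549 SRSF2 and 13 in untreated A549, a ratio of CPM of 1.52 with a 95% interval of 0.703 to 3.37. For ESRP2 the ratio was 1.53 (0.865 to 2.73), for CDH3 1.39 (0.886 to 2.20), for SPINT1 1.10 (0.709 to 1.70) and for ST14 0.853 (0.501 to 1.44). These intervals cover counting error only, and a change of these genes in A549 was not detectable at this depth (edgeR adjusted p from 0.278 to 0.779).

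**Figure D2:**
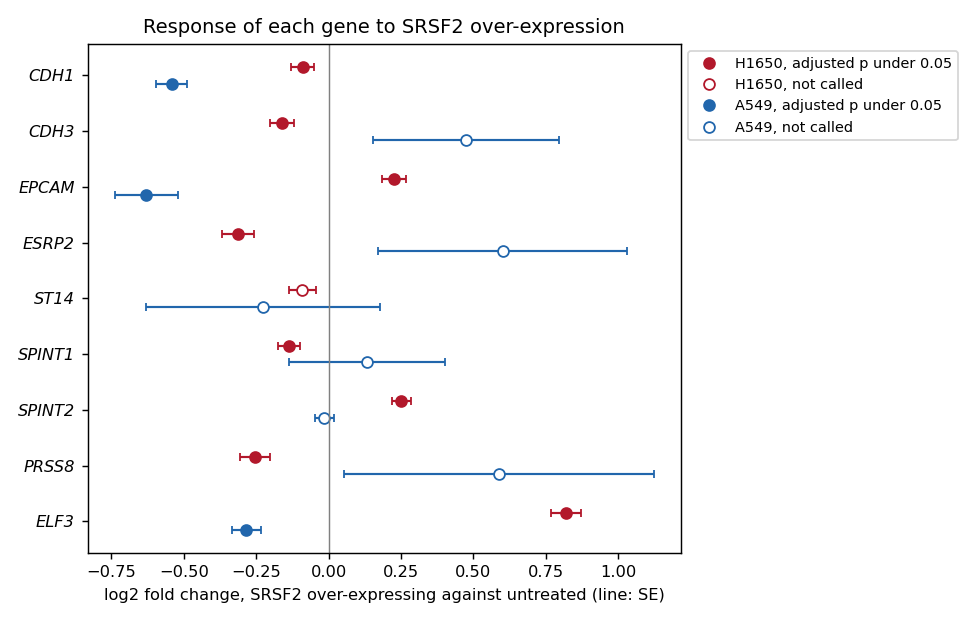
Log2 fold change of each gene, SRSF2 over-expressing against untreated, in H1650 (red, upper point) and A549 (blue, lower point), with lines for the SE; filled points have an adjusted p under 0.05. EPCAM (0.23 in H1650, -0.63 in A549) and ELF3 (0.82 in H1650, -0.28 in A549) lie on opposite sides of 0, and the 5 genes scarcely detected in A549 have long error lines there.

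Whether SRSF2 acted differently in the lines was tested as the difference of the responses, H1650 minus A549. It was positive and called for 4 of the 9 genes, and called negative for 0, where 47.5% of all genes tested were called, 23.5% positive and 24% negative, so the share is again close to the background. ELF3 had the largest difference, 1.10 (SE 0.07, adjusted p = 1.18e-14), with a rise in H1650 and a fall in A549. EPCAM likewise rose in H1650 and fell in A549, with a difference of 0.85 (SE 0.12, adjusted p = 2.37e-07). For CDH1 the difference was 0.45 (SE 0.07, adjusted p = 7.94e-07), since its fall was larger in A549, but on log2(FPKM + 1) it was -0.022 (adjusted p = 0.662). For SPINT2 it was 0.27 (SE 0.05, adjusted p = 1.2e-05). The 5 genes scarcely detected in A549 had differences from -0.91 (ESRP2, SE 0.43, adjusted p = 0.0834) to 0.14 (ST14, SE 0.40, adjusted p = 0.813), and these are limited by the A549 counts. Without A549 SRSF2 replicate 2, ESRP2 (-1.27, adjusted p = 0.0185) and PRSS8 (-1.32, adjusted p = 0.0371) were called. ESRP2 was also called without untreated A549 replicate 1 (-1.52, adjusted p = 0.0138), and CDH3 without untreated A549 replicate 2 (-0.95, adjusted p = 0.0355) or A549 SRSF2 replicate 3 (-0.89, adjusted p = 0.0251).

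The line itself was by far the larger divide. Of the 9 genes, 8 were higher in untreated H1650 than in untreated A549 and ELF3 was lower, beside 82.4% of all genes called, 40.1% higher and 42.3% lower. Since the genes were chosen with earlier results of these data known, this count is a description. So are the values of the 5 genes scarcely detected in A549, of which PRSS8 passed the filter on low counts only through H1650. The table also holds no gene with counts above 0 in fewer than 4 A549 libraries, while 136 of its genes are at 0 throughout H1650, so genes found in H1650 only are not among those compared. CDH3 was 1529 ± 38.5 CPM in untreated H1650 and 0.432 ± 0.257 CPM in untreated A549, so that A549 held 0.0282% of the H1650 level (log2 fold change 11.79). The log2 fold changes were 10.91 for ST14, 10.06 for SPINT1, 9.58 for PRSS8 and 8.74 for ESRP2. No SE is given for these 5 genes, since an SE taken from the F statistic is too small where counts are so few. Summed over untreated A549, they had 37 (CDH3), 36 (ST14), 45 (SPINT1), 13 (PRSS8) and 23 (ESRP2) counts. EPCAM, at 307.1 ± 9.64 CPM in untreated H1650 and 5.72 ± 0.451 CPM in untreated A549, differed by 5.74 (SE 0.06), and CDH1 by 5.10 (SE 0.05). SPINT2 was 2.67-fold higher in untreated H1650 (783.5 ± 11.9 CPM) than in untreated A549 (293.9 ± 3.68 CPM). Fewer cells carrying a transcript and less of it per cell cannot be told apart in these bulk libraries.

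Between the SRSF2 over-expressing lines the same 8 genes were higher in H1650, while 84.2% of all genes were called, 40.5% higher and 43.7% lower. ELF3, 2.23-fold lower in untreated H1650 than in untreated A549 (log2 fold change -1.16, SE 0.05, adjusted p = 1.12e-20), was 54.7 ± 3.87 CPM in H1650 SRSF2 and 56.7 ± 0.580 CPM in A549 SRSF2. That difference was not called (-0.05, SE 0.05, 95% interval -0.16 to 0.05, adjusted p = 0.313). The median of all genes in this comparison was -0.06 with TMM, -0.17 with upper-quartile scaling and -0.17 with plain library totals. ELF3 moved with that median, to -0.17 with either scaling (adjusted p = 0.00283 and 0.00213), and was then called lower. Without H1650 SRSF2 replicate 1 it was called lower as well (-0.11, adjusted p = 0.0403).

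For each gene the 4 groups can be put in order of level. CDH1 and ST14 ran from untreated H1650 through H1650 SRSF2 and untreated A549 to A549 SRSF2, and CDH3, ESRP2, SPINT1 and PRSS8 had the A549 groups the other way round. For these 4 genes and for ST14 the A549 groups did not differ beyond their spread, and for ST14 the H1650 groups also overlapped. EPCAM and SPINT2 were highest in H1650 SRSF2, followed by untreated H1650, untreated A549 and A549 SRSF2, with the A549 groups overlapping for SPINT2. ELF3 was highest in untreated A549, followed by the overlapping SRSF2 groups and then untreated H1650.

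Levels can be set against each other only per length, here as CPM per kilobase of the merged exons of GENCODE 29. On that scale CDH3 and CDH1 led in H1650, at 219.3 ± 3.17 and 199.2 ± 7.10 in H1650 SRSF2 and at 245.2 ± 6.17 and 212.0 ± 3.13 in untreated H1650. ST14, SPINT1, SPINT2 and EPCAM followed between 142.5 and 179.4 in H1650 SRSF2 and between 121.9 and 186.3 in untreated H1650. PRSS8, ESRP2 and ELF3 were lower, at 33.0, 16.8 and 7.61 in H1650 SRSF2 and at 39.3, 20.9 and 4.30 in untreated H1650. In A549 the order was another one, led by SPINT2 at 56.0 ± 0.781 in A549 SRSF2 and 56.5 ± 0.707 in untreated A549. ELF3, CDH1 and EPCAM came next, at 7.89, 4.25 and 1.48 in A549 SRSF2 and at 9.60, 6.18 and 2.27 in untreated A549. The other 5 genes lay at or below 0.159 per kilobase in both A549 groups.

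The balance of inhibitor to protease per length differed between the H1650 groups for SPINT2. The ratio of SPINT2 to ST14 was 1.09, 1.04 and 0.958 in H1650 SRSF2 and 0.830, 0.811 and 0.788 in untreated H1650, so that the groups did not overlap. The ratio of SPINT1 to ST14 was 0.825 ± 0.0353 in H1650 SRSF2 and 0.852 ± 0.0435 in untreated H1650, a difference smaller than the spread. On this scale SPINT2 stood above SPINT1 in H1650 SRSF2 (ratio 1.25 ± 0.0282) and below it in untreated H1650 (0.951 ± 0.0240). Which gene of a pair stands higher depends on the exon lengths used (5199 bases for SPINT2, 3542 for SPINT1). The change of a ratio between groups does not depend on them. ST14 exceeded PRSS8 5.30-fold in H1650 SRSF2 and 4.74-fold in untreated H1650. The ratio of CDH3 to CDH1 was 1.10 ± 0.0448 in H1650 SRSF2 and 1.16 ± 0.0454 in untreated H1650. No test was run on these ratios, which restate the fold changes above.

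**Figure D3:**
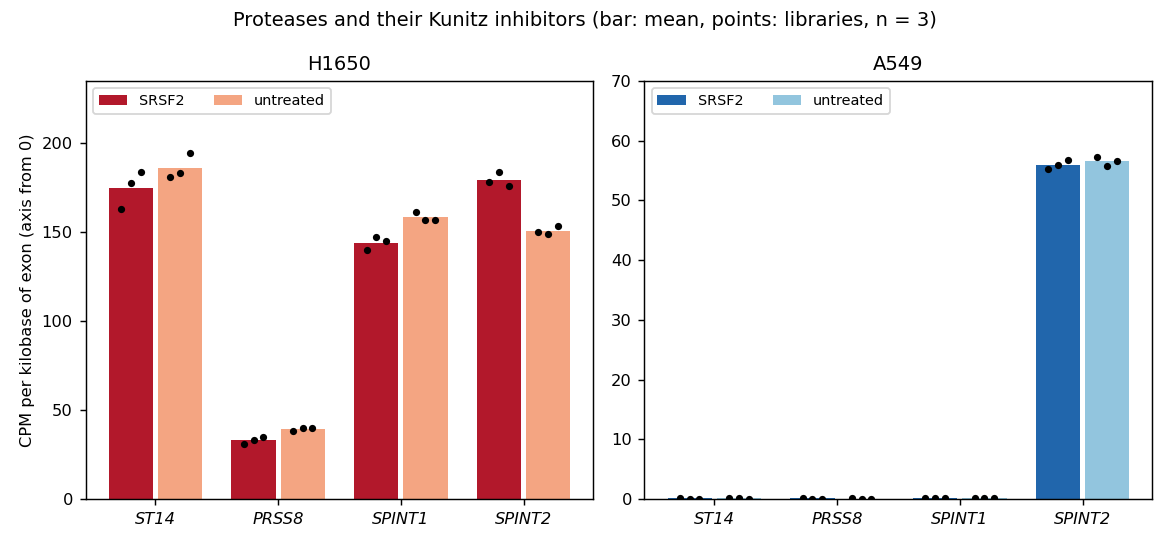
Level per length (CPM per kilobase of exon, axes from 0, with a different scale for each line) of the proteases ST14 and PRSS8 and the inhibitors SPINT1 and SPINT2 in H1650 (left panel) and A549 (right panel); bars are means and points are libraries (n = 3), with SRSF2 left of untreated. In H1650 SPINT2 is the tallest bar of the SRSF2 group (179.4) and ST14 that of the untreated group (186.3), and in A549 SPINT2 stands near 56 while the other 3 genes are close to 0.

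The ESRP2, CDH3 and CDH1 genes lie within 606.4 kb of chromosome 16 (68229111 to 68835548), where GENCODE 29 annotates 31 genes, 9 of them protein coding. All 9 were tested. The 6 others, added for their position after values were known, are the lysosomal phospholipase gene PLA2G15, the amino acid transporter gene SLC7A6 and its neighbour SLC7A6OS, the arginine methyltransferase gene PRMT7, the sphingomyelinase gene SMPD3 and the zinc finger gene ZFP90. Each was higher in untreated H1650 than in untreated A549, but by 0.27 (PRMT7) to 2.28 (PLA2G15) on the log2 scale, against 8.74 for ESRP2, 11.79 for CDH3 and 5.10 for CDH1. Of all genes tested, 40.1% were called higher in this comparison. ZFP90, the nearest gene before CDH3, differed by 1.61 (67.9 ± 0.504 CPM in untreated H1650 and 22.2 ± 0.372 CPM in untreated A549).

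With SRSF2 in H1650, the genes of this stretch did not share a direction, beside 31% of all genes tested called higher and 31.3% lower. ESRP2, CDH3 and CDH1 fell, as did SLC7A6 (-0.19, adjusted p = 0.00903), PRMT7 (-0.55, adjusted p = 6.1e-11) and ZFP90 (-0.36, adjusted p = 1.65e-07). SLC7A6OS rose by 0.59 (adjusted p = 6.67e-09) and PLA2G15 by 0.17 (adjusted p = 0.0204). SMPD3 was not called (0.05, adjusted p = 0.769). In A549, PRMT7 (-0.19, adjusted p = 0.00666) and CDH1 were the called genes of the 9, beside 32.3% of all genes tested. Without A549 SRSF2 replicate 1 the PRMT7 call was lost (adjusted p = 0.0506) and SLC7A6OS was called higher (0.27, adjusted p = 0.045), as it was without H1650 SRSF2 replicate 3 (adjusted p = 0.0446). The PLA2G15 and SLC7A6 calls in H1650 did not survive every omission of a library, with adjusted p of 0.116 for PLA2G15 and 0.174 for SLC7A6 without H1650 SRSF2 replicate 2. PLA2G15 was also lost without untreated H1650 replicate 1 (adjusted p = 0.0718) or replicate 3 (adjusted p = 0.0652) and with plain library totals (0.09, adjusted p = 0.22).

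**Figure D4:**
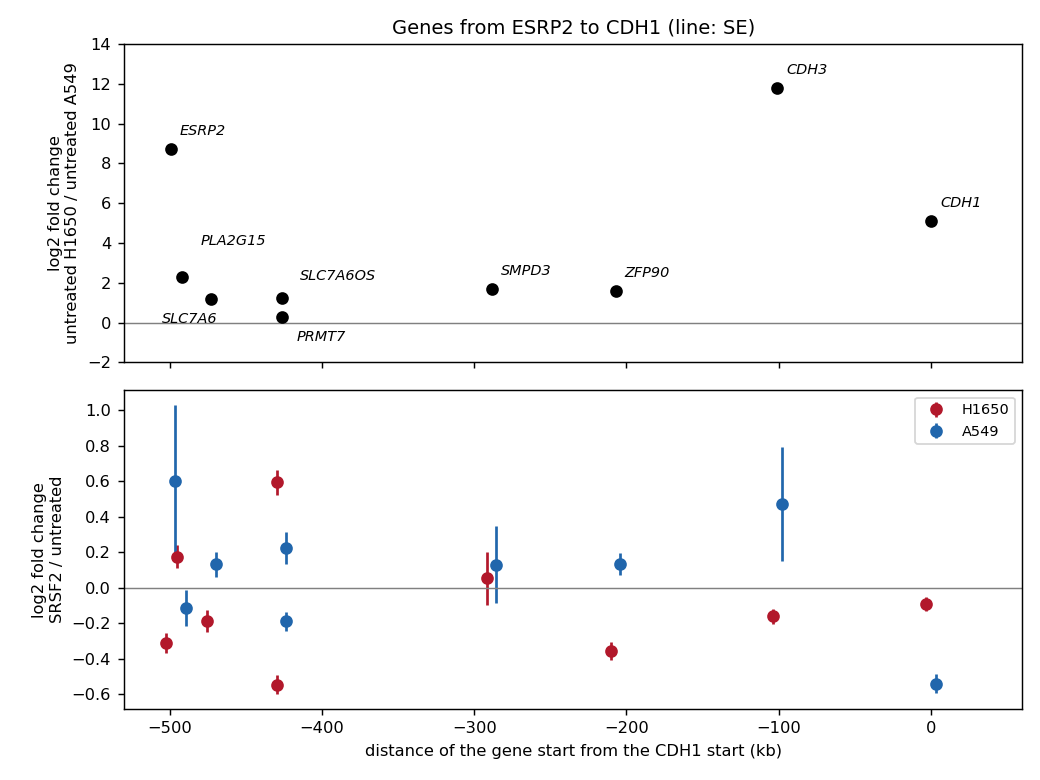
Log2 fold change of the 9 protein-coding genes from ESRP2 to CDH1 against the distance of their start from the CDH1 start (kb), for untreated H1650 over untreated A549 (upper panel) and for SRSF2 over untreated in each line (lower panel; H1650 red, A549 blue); lines are SE. ESRP2, CDH3 and CDH1 stand at 8.74, 11.79 and 5.10 in the upper panel, above the 6 genes between them (0.27 to 2.28), and the responses in the lower panel lie on both sides of 0. The SE lines of ESRP2 and CDH3 in the upper panel are too short, since their A549 counts were few.

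The profiles of the 9 genes across the 12 libraries were compared by the root-mean-square difference of centred log2 CPM. Within the set, ESRP2 and PRSS8 were nearest each other (0.412), as were CDH3 and ST14 (0.441) and CDH1 and EPCAM (0.461), while SPINT2 and ELF3 were 1.10 apart and had no nearer partner. Outside it, the nearest profiles were PPP1R14C (0.0848) and MMP2 (0.128) for CDH1, SERPINA1 (0.225) for EPCAM, and TNC (0.341) for ESRP2. For SPINT1 they were SPARC (0.344) and S100A14 (0.386), for PRSS8 CRABP2 (0.421), and for SPINT2 ZDHHC3 (0.0539) and RPN2 (0.0575). MARCHF3 (0.0873) and PSMC4 (0.103) were nearest to ELF3. ST14 had no close profile outside the set, with BST2 at 0.915. MMP2, a secreted matrix metalloprotease, was 279.2 CPM in H1650 SRSF2, 325.4 CPM in untreated H1650, 6.82 CPM in A549 SRSF2 and 9.07 CPM in untreated A549, a likeness to CDH1 that the line difference dominates.

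The partners and relatives of the 9 genes were read from lists of related genes, whose counts are descriptions to be set beside the shares of all genes called. CDH2, which encodes N-cadherin, ran the other way from CDH1 between the lines, at 0.219 ± 0.0692 CPM in untreated H1650 and 22.8 ± 0.894 CPM in untreated A549 (log2 fold change -6.67). CDH6, a kidney cadherin gene, was at 0 in all H1650 libraries and 0.848 ± 0.176 CPM in untreated A549. ESRP1, CDH5, CDH11 and CDH13 were not analysed here.

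All 10 adherens junction partners were tested, and all 10 were higher in untreated H1650 than in untreated A549, beside 40.1% of all genes called higher. With SRSF2 in H1650, 4 rose and 5 fell, beside 31% of all genes called higher and 31.3% lower. The nectin gene NECTIN2 (256.7 ± 3.68 CPM in H1650 SRSF2, 121.3 ± 2.03 CPM in untreated H1650, log2 fold change 1.08) and PLEKHA7 (1.42) rose, as did JUP, which encodes plakoglobin (0.47). VCL, which encodes the actin linker vinculin, fell by 0.73. In A549 3 of the 10 rose and 5 fell, beside 16.4% of all genes called higher and 15.9% lower, with changes of -0.16 for NECTIN2, 0.16 for VCL and -0.44 for NECTIN1. The difference of the responses was 1.24 for NECTIN2 (adjusted p = 4.81e-19) and -0.89 for VCL (adjusted p = 1.11e-15).

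Of the 15 tight junction and polarity genes tested of 17, 6 rose and 4 fell in H1650, with CLDN1 (1.44) and CLDN4 (0.81) up and TJP3 (-1.15) down. In A549 3 rose and 3 fell, with PARD6B (0.70) and CLDN1 (0.50) up and CGN, which encodes cingulin, down (-0.70). Of 8 desmosome genes tested of 9, 3 rose and 3 fell in H1650, among them DSC2 (0.45) and DSC3 (-0.84), and 2 rose and 2 fell in A549. Beside the counts of both lists, 31% of all genes tested were called higher and 31.3% lower in H1650. The shares in A549 were 16.4% higher and 15.9% lower. CLDN7, OCLN and DSG3 were not analysed here.

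Substrates and partners of matriptase moved in both directions. Of 10 genes tested of 20 on this list, 4 rose and 3 fell in H1650, and 4 rose and 2 fell in A549. Beside this, 31% of all genes tested were called higher and 31.3% lower in H1650, and 16.4% higher and 15.9% lower in A549. The rise of MST1R in H1650 (0.12, adjusted p = 0.0287) was lost without H1650 SRSF2 replicate 3 (0.085, adjusted p = 0.155). MET, the receptor of hepatocyte growth factor, a ligand that matriptase can activate, was 370.6 ± 17.7 CPM in H1650 SRSF2 and 457.7 ± 6.68 CPM in untreated H1650 (-0.31). In A549 it was 500.9 ± 12.2 CPM in SRSF2 libraries and 358.3 ± 6.78 CPM in untreated libraries (0.48), and the difference of the responses was -0.79 (adjusted p = 8.57e-15). CDCP1, a matriptase substrate, rose in H1650 (0.60) and in A549 (0.37). SCNN1A, the alpha subunit of the sodium channel that prostasin can activate, fell in H1650 (-0.75) and in A549 (-0.46). PLAUR, the urokinase receptor gene, rose most, to 1384 ± 72.8 CPM in H1650 SRSF2, against 289.7 ± 20.2 CPM in untreated H1650 (2.26). HGF and HGFAC did not pass the filter, and TMPRSS2, TMPRSS3, TMPRSS4, TMPRSS11E, TMPRSS13, PRSS22, SCNN1G and PLAU were not analysed here.

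Repressors of epithelial genes rose with SRSF2 in H1650 in 5 of 7 cases tested of 10 listed, and 1 fell, beside 31% of all genes called higher and 31.3% lower. SNAI1, a repressor of CDH1, was 82.6 ± 9.59 CPM in H1650 SRSF2 and 24.8 ± 1.56 CPM in untreated H1650 (1.73, adjusted p = 5.59e-21). ZEB1 was 5.60 ± 1.11 CPM in H1650 SRSF2 and 1.98 ± 0.191 CPM in untreated H1650 (1.49, adjusted p = 2.46e-11), and ZEB2 was 0.533 ± 0.179 CPM in H1650 SRSF2 and 0.0985 ± 0.0660 CPM in untreated H1650 (2.35, adjusted p = 5.5e-05). The last value is about that of 3 counts in a library (0.0964 to 0.101 CPM). TWIST1 (0.65, adjusted p = 0.00998) and TWIST2 (0.46, adjusted p = 0.000206) rose as well, TWIST1 with an adjusted p of 0.0827 without untreated H1650 replicate 3. On log2(FPKM + 1) the calls of ZEB2 (adjusted p = 0.476) and TWIST1 (adjusted p = 0.216) in H1650 were lost. TCF3 fell by 0.52, and SNAI2, SNAI3 and KLF8 were not analysed here. In A549 3 of the 7 rose and 2 fell, beside 16.4% and 15.9% of all genes. ZEB2 was 12.9 ± 0.987 CPM in A549 SRSF2 and 6.24 ± 0.534 CPM in untreated A549 (1.05, adjusted p = 1.43e-08), and ZEB1 was 44.6 ± 2.01 CPM in A549 SRSF2 and 38.4 ± 1.89 CPM in untreated A549 (0.22, adjusted p = 0.0128). The ZEB1 call in A549 was lost without A549 SRSF2 replicate 2 (adjusted p = 0.0951) or untreated A549 replicate 1 (adjusted p = 0.0759). SNAI1 was not called in A549 (-0.18, adjusted p = 0.381), and the difference of the responses was 1.91 (adjusted p = 7.64e-12). CDH1 itself moved by -0.09 in H1650 and by -0.54 in A549.

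Other epithelial transcription factors, 9 tested of 12, rose in 2 cases and fell in 2 in H1650, with GRHL1 at 0.64 and OVOL2 at -0.70. In A549 1 rose and 2 fell, namely SPDEF (-0.996) and EHF (-0.67), ETS factors like ELF3. Between the untreated lines 3 were higher and 6 lower in H1650, beside 40.1% of all genes called higher and 42.3% lower. Among those lower was FOXA2, at 0.0222 ± 0.0192 CPM in untreated H1650 and 39.5 ± 1.28 CPM in untreated A549. GRHL2, OVOL1 and ELF5 were not analysed here. Of the 7 genes for proteases that cleave E-cadherin or EpCAM at the membrane, 4 rose and 1 fell in H1650, with ADAM10 at -0.28, and 2 rose and 1 fell in A549. Without H1650 SRSF2 replicate 3, APH1A was called lower in A549 too (-0.098, adjusted p = 0.0496). Beside the counts of these 2 lists, 31% of all genes tested were called higher and 31.3% lower in H1650. The shares in A549 were 16.4% higher and 15.9% lower. Over the lists in H1650, the median log2 fold change ran from -0.23 for adherens junction partners to 0.65 for the repressors, beside 0.00 over all genes tested. In A549 it ran from -0.14 for epithelial transcription factors to 0.08 for desmosome genes.

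**Figure D5:**
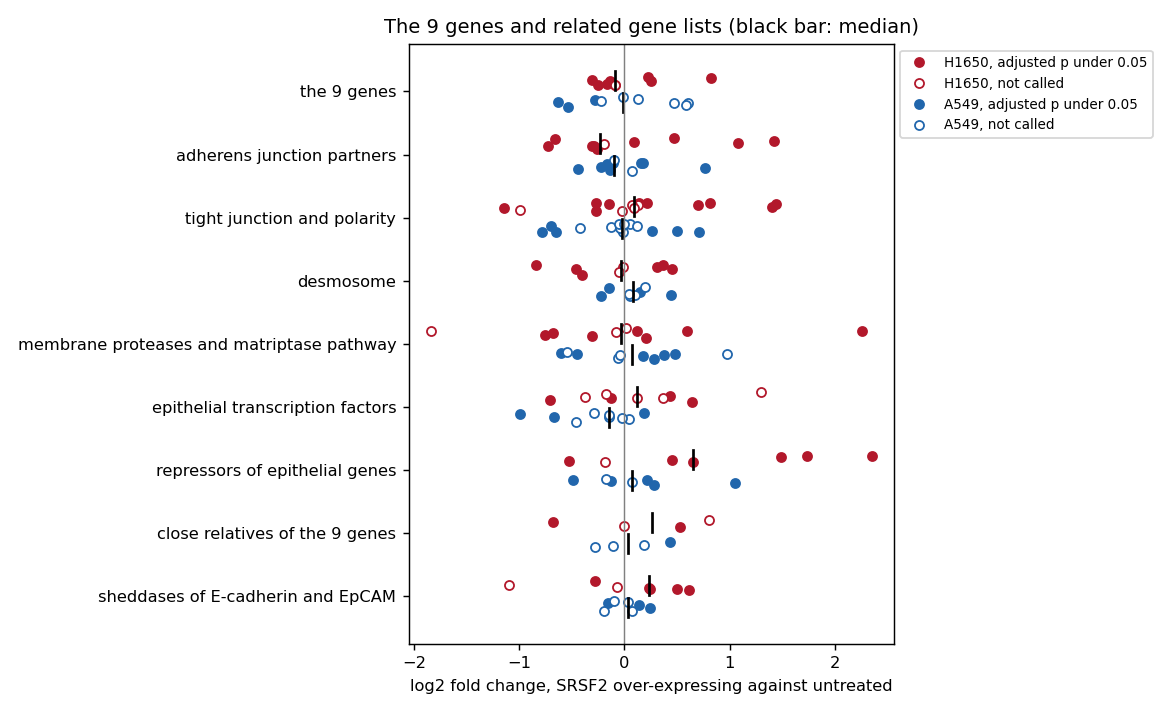
Log2 fold change with SRSF2 over-expression of the 9 genes and of the related gene lists, in H1650 (red, upper row of each list) and A549 (blue, lower row); filled points have an adjusted p under 0.05 and black bars are medians. The repressor list has its H1650 median at 0.65, while the median of the 9 genes is -0.09 in H1650 and -0.01 in A549.

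Markers of other cell types were low. The fibroblast markers COL1A1 and COL3A1 summed to 19.1 to 20.6 CPM in H1650 SRSF2, 21.4 to 22.7 CPM in untreated H1650, 8.63 to 10.3 CPM in A549 SRSF2 and 12.2 to 14.99 CPM in untreated A549, 2 of 6 listed. The leukocyte marker CD14, 1 of 5 listed, reached 6.58 CPM in untreated A549. Their part in the results was not tested. Among the epithelial markers, KRT19 was 624.7 ± 22.0 CPM in H1650 SRSF2 and 1304 ± 5.60 CPM in untreated H1650 (-1.06) and rose in A549 (0.30), with a difference of -1.37 (adjusted p = 7.27e-21). The other 4 epithelial markers were not called lower in H1650. KRT18 had responses of 0.20 in H1650 and -0.24 in A549 (difference 0.44, adjusted p = 2.58e-09), and KRT8 of 0.09 in H1650 and -0.15 in A549 (difference 0.25, adjusted p = 2.13e-05), the directions of EPCAM and ELF3. The KRT8 rise in H1650 was lost with plain library totals (0.01, adjusted p = 0.73) and without untreated H1650 replicate 1 (adjusted p = 0.065), untreated H1650 replicate 2 (adjusted p = 0.0598) or H1650 SRSF2 replicate 3 (adjusted p = 0.0587). KRT7 rose in both lines (0.09 in H1650, 0.12 in A549), but its call in H1650 was lost with plain library totals (0.01, adjusted p = 0.814) and without untreated H1650 replicate 2 (adjusted p = 0.0525). MUC1 rose in A549 (0.80) and was not called in H1650 (0.01, adjusted p = 0.914), with a difference of -0.80 (adjusted p = 1.44e-06).

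Some reads of the 9 genes can belong to overlapping genes, since the strand setting of the counting is not given in the sources used here. ELF3 shares 664 exon bases (9.23% of its own) with the antisense gene ELF3-AS1 on the other strand, ESRP2 shares 149 (2.68%) with NFATC3 on the other strand, and SPINT2 shares 242 (4.65%) with a neighbouring coding gene on its own strand. For PRSS8 the overlap with an antisense gene is 11.9% of its exon bases and for CDH3 with CDH3-AS1 11.1%, and reads of these partners cannot be told apart from theirs.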

How the data were processed

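The authors deposited a table of counts per gene. The submitters' processing notes name fastp 0.20.1, STAR 2.7.7a, featureCounts 2.0.0 and the build GRCh38. The annotation release, the strand setting and how the table's genes were selected are not given in the sources used here. No gene of the table has counts above 0 in fewer than 4 A549 libraries, while 136 are at 0 throughout H1650. The authors' deposited FPKM derive from the same counts. Their length term is the whole genomic span with introns for 11519 of 16139 IDs (71.4%), so FPKM served in alternatives only. A gene name table gave symbols to 16076 IDs and GENCODE 29 to 63, leaving 460 without.

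The 12 libraries were grouped by line and treatment as labelled. The counts went into edgeR 4.0.16 (R 4.3.3). After filterByExpr, 15991 genes were scaled by TMM and tested by quasi-likelihood. The model held a mean for each group, which left 8 degrees of freedom among libraries. Benjamini-Hochberg adjustment ran over all of them, and an adjusted p under 0.05 was a call. SEs were taken from the log2 fold change and the root of its F statistic. For differences between the lines, such SEs are too small for genes nearly silent in A549. CPM in the text is TMM-scaled, except for marker sums. The procedure was tested on simulated data.

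The members and lists were chosen with earlier results of these data known. Beyond the 9 genes, the text names up to 4 called genes per list and comparison with the smallest adjusted p, list genes not tested, the 2 nearest profiles per gene, the genes between ESRP2 and CDH1, and the epithelial markers. A few genes this rule gives are not reported here. Alternatives were upper-quartile scaling, plain totals, no filter, a filter of 5 CPM in 3 libraries, only the groups compared, a replicate block, DESeq2 1.42.0, limma 3.58.1 on log2(FPKM + 1) and log2(FPKM + 0.1), and each library left out. Replicates of a group differed beyond sampling noise in every pair (chi-square over its degrees of freedom 2.29 to 8.11). Libraries sharing a number showed residual correlations of -0.02 to 0.024, so the numbers were not used to pair them.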

Additional observations from a re-analysis of the deposited data

Results flagged for a closer look

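For 4 of the 9 genes the response to SRSF2 differed between the lines by the test of the difference itself (H1650 minus A549, log2). It was 1.10 for ELF3, 0.85 for EPCAM, 0.45 for CDH1 and 0.27 for SPINT2. ELF3 and EPCAM were higher in all 3 H1650 SRSF2 libraries than in untreated H1650 and lower in all 3 A549 SRSF2 libraries than in untreated A549. The CDH1 difference was -0.022 on log2(FPKM + 1). Groups of 3 libraries are too small for a test of single outlying libraries.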

How the results depend on the processing

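Counts of called genes among the 9 were recomputed under 21 alternatives. In H1650, 2 to 3 were called higher and 4 to 6 lower, and in A549, 0 higher and 2 to 3 lower. Under the alternatives that tested 15991 genes, 9296 to 10063 of all genes were called in H1650 and 4194 to 5813 in A549. Between the lines the counts of all genes called were 12899 to 13323 untreated and 13086 to 13477 with SRSF2. Between the untreated lines 8 were higher and 1 lower under every alternative run, and between the SRSF2 lines 8 were higher under every alternative run. The number called lower between the SRSF2 lines, 0 as reported, was 1 with upper-quartile scaling, 1 with plain totals, 1 on log2(FPKM + 1) and 1 on log2(FPKM + 0.1), and 0 to 1 when a library was left out. The gene was ELF3 each time. The number with a negative called difference of the responses, 0 as reported, was 1 with the replicate block (ESRP2), 5 on log2(FPKM + 1), 2 on log2(FPKM + 0.1) and 0 to 2 when a library was left out, while 3 to 4 differences were called positive. Of all 15991 genes, the difference was called in either direction for 7809 on log2(FPKM + 1), 7685 on log2(FPKM + 0.1) and 7624 with the replicate block. On log2(FPKM + 1) the difference reversed for CDH1 (-0.022) and ST14 (-0.16). The CDH1 call in H1650 was also lost with the filter of 5 CPM (adjusted p = 0.0745) and with only the groups compared (adjusted p = 0.0717). The causes were not tested. The replicate block changed the call of ST14 in H1650 (-0.09, adjusted p = 0.0325) and of the ESRP2 difference (-0.95, adjusted p = 0.0473), and no other call among the 9 genes.

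Of the values for the 9 genes under alternatives, 903 kept their side of the threshold, 9 lost a call, 22 gained a call and 2 reversed. For 172 results on other named genes these numbers were 3497, 69, 33 and 0. Among all those that kept their side, 29 values called under neither setting changed sign, among them PRSS8 in A549 (0.59 as reported, as low as -0.22) and ST14 in A549 (-0.23 as reported, as high as 0.12). Fitting only the groups compared gives no value for the difference of the responses. Depth limits CDH3, ESRP2, ST14, SPINT1 and PRSS8 in A549, where no library had more than 22 counts of any of them.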
